A study of Homo sapiens with 22 samples.

Results

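The loci described here are human genes at which replication origins were mapped in classical work: LMNB2, TIMM13, TOP1, PRKDC, HBB, DNMT1 and HSPA4. They were chosen by name, 7 genes of the 19974 protein-coding genes of RefSeq, and each was taken as its RefSeq span with 50 kb added on each side. The windows of LMNB2 and TIMM13 overlap and were joined, which left 6 loci. The study mapped MTBP in the colorectal adenocarcinoma cell line DLD-1 by CUT&RUN, which frees the DNA next to an antibody's target with a tethered nuclease. FLAG antibody was used in a line of genotype MTBP-mAID/MTBP-WT-FLAG (WT, 3 libraries), in one of genotype MTBP-mAID/MTBP-deltaC-FLAG, whose tagged MTBP lacks its C-terminal part (deltaC, 3 libraries), and in an untagged control, MTBP-mAID/MTBP-mAID (3 libraries). All of these lines carry MTBP fused to mAID, an auxin-inducible degron. H3K4me2, a mark of active promoters and enhancers (2 libraries), and IgG (2 libraries) were profiled in the WT line. EdU-seq, which sequences newly made DNA labelled with EdU for 3 hr, covered G1-arrested WT cells and both WT and deltaC cells released into S phase (3 libraries each), and the released cells were held early in S phase with hydroxyurea and aphidicolin. Whether a line is 1 clone, and whether auxin was given, is not given in the sources used here. The deposited lists give 1 set of values for each peak or zone and no value for a library, so no spread between libraries could be computed and no difference below has a replicate test.

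An origin is a place where the MCM helicase is loaded onto DNA in G1 and switched on in S phase. MTBP and its partner Treslin act at the switching step, in which CDC45 and GINS join the helicase. The LMNB2 origin was mapped between the 3′ end of LMNB2 and the start of TIMM13. The TOP1 origin was mapped at the promoter of that gene, and the MCM4 origin between the divergent genes PRKDC and MCM4. In the globin cluster, initiation was mapped between HBD and HBB, up to the HBB promoter. Origins have also been assigned to the DNMT1 and HSPA4 loci. Their exact positions are not used here, and values at these genes are given from the gene start. At LMNB2, PRKDC and HBB, the intervals below are the whole gaps between RefSeq gene ends, and published origin coordinates were not used.

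Sequences upstream of the starts are shown because the mapped origins at TIMM13 and TOP1 lie in or beside them and because MTBP peaks covered the first 5 of the 6 over all 250 bases. The share of all promoters covered in full was not computed. By a looser measure, 43.0% of protein-coding starts had an MTBP peak within 1 kb. The printed bases are RefSeq sequences (GRCh38.p14) of 5 of the 7 member genes and of HBD, read 5′ to 3′ toward the gene. Capitals mark matches to GGGCGG or CCAAT on either strand; the printed matches did not overlap each other.
TIMM13 (chr19:2427587-2427836, minus strand): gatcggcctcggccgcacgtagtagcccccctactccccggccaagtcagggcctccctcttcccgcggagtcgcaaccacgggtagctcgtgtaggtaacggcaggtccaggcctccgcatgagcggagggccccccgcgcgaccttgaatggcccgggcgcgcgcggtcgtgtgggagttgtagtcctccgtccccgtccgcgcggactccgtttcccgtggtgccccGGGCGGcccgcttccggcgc
LMNB2 (chr19:2456960-2457209, minus strand): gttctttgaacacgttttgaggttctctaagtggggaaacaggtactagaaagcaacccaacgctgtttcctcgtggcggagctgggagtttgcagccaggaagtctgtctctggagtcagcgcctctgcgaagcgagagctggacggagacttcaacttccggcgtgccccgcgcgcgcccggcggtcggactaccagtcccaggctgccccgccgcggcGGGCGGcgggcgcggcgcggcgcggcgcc
TOP1 (chr20:41028572-41028821, plus strand): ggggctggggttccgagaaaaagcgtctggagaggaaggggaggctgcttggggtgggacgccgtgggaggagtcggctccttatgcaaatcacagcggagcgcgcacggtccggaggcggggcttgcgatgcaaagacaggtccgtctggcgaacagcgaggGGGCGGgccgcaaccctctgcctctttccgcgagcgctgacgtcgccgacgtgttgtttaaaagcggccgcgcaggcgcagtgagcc
DNMT1 (chr19:10194954-10195203, minus strand): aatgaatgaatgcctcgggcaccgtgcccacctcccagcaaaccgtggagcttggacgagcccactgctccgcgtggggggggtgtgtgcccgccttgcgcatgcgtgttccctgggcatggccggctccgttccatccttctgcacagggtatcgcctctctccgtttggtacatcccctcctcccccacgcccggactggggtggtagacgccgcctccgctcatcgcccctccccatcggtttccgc
HSPA4 (chr5:133051763-133052012, plus strand): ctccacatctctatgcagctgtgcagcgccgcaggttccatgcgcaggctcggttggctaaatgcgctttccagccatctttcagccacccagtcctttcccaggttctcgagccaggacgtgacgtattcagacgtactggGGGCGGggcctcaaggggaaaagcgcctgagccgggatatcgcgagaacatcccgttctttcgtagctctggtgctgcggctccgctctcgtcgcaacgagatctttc
HBD (chr11:5234484-5234733, minus strand): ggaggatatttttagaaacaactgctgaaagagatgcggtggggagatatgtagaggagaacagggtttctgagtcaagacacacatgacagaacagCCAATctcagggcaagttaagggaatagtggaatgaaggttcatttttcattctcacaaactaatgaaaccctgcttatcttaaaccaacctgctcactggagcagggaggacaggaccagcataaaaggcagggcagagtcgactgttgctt

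The TIMM13 sequence lies wholly in the gap between TIMM13 and LMNB2, and holds 34 CpG dinucleotides at 72.8% GC. CpG counts were 30 upstream of LMNB2, 28 upstream of TOP1, 21 upstream of DNMT1 and 21 upstream of HSPA4, against a median of 17 over 15813 protein-coding promoters of the same length. At DNMT1 and HSPA4, 59.8% of promoters had fewer CpG. GC was 66.4% at LMNB2, 66.8% at TOP1, 66.8% at DNMT1 and 59.6% at HSPA4, against a median of 62.4%. HSPA4, though covered by an MTBP peak, thus lay below the median. HBD, which no MTBP peak touched, had 2 CpG at 45.2% GC, and 8.15% of promoters had fewer CpG. GGGCGG, the core of the GC box, was present in 4 of the 6 sequences (TIMM13, LMNB2, TOP1 and HSPA4) and in 56.0% of all promoters. CCAAT was present only in that of HBD, and in 34.4% of all promoters. TATAAA, present in 9.25% of all promoters, was in none of the 6. The MTBP summit lay inside the printed bases at 3 genes, 197 bp upstream of the start at TIMM13, 212 bp upstream at TOP1 and 189 bp upstream at HSPA4. At LMNB2 it lay 314 bp upstream, past the printed bases, and at DNMT1 88 bp downstream of the start.

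The 6 loci held 25 MTBP peaks, 49 H3K4me2 peaks and 7 initiation zones in 1031680 bp. Every member gene had an MTBP peak in its window, where 80.7% of protein-coding genes did, and every one had H3K4me2, where 91.3% did. A zone reached the window of 6 of the 7 genes, all but HBB, against 38.1% of protein-coding genes. LMNB2 and TIMM13 share the same 2 zones and part of their peaks, so counts and medians over genes include that locus under both names. The median member window held 5 MTBP peaks (2 to 8), against a median of 2 over all genes, and 7 H3K4me2 peaks (1 to 17), against 5. Per 100 kb, the windows ran from 1.05 MTBP peaks at PRKDC through 1.29 at HSPA4, 1.97 at HBB, 2.56 at TOP1, 3.09 at DNMT1 and 4.90 at TIMM13 to 6.21 at LMNB2. The median over all genes was 1.64, so PRKDC and HSPA4 lay below it and the other 5 above. With 2 to 8 peaks in a window, neighbours in this order can differ by a single peak, and their order carries no error estimate. Window edges also set these numbers: the nearest MTBP peak outside lay 3534 bp past the edge at HBB (score 255) and 62964 bp past it at PRKDC (score 190), and the peaks nearest the edge on the inside were 2457 bp from it at HBB (score 103) and 2522 bp from it at LMNB2 (score 992).

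**Figure D1:**
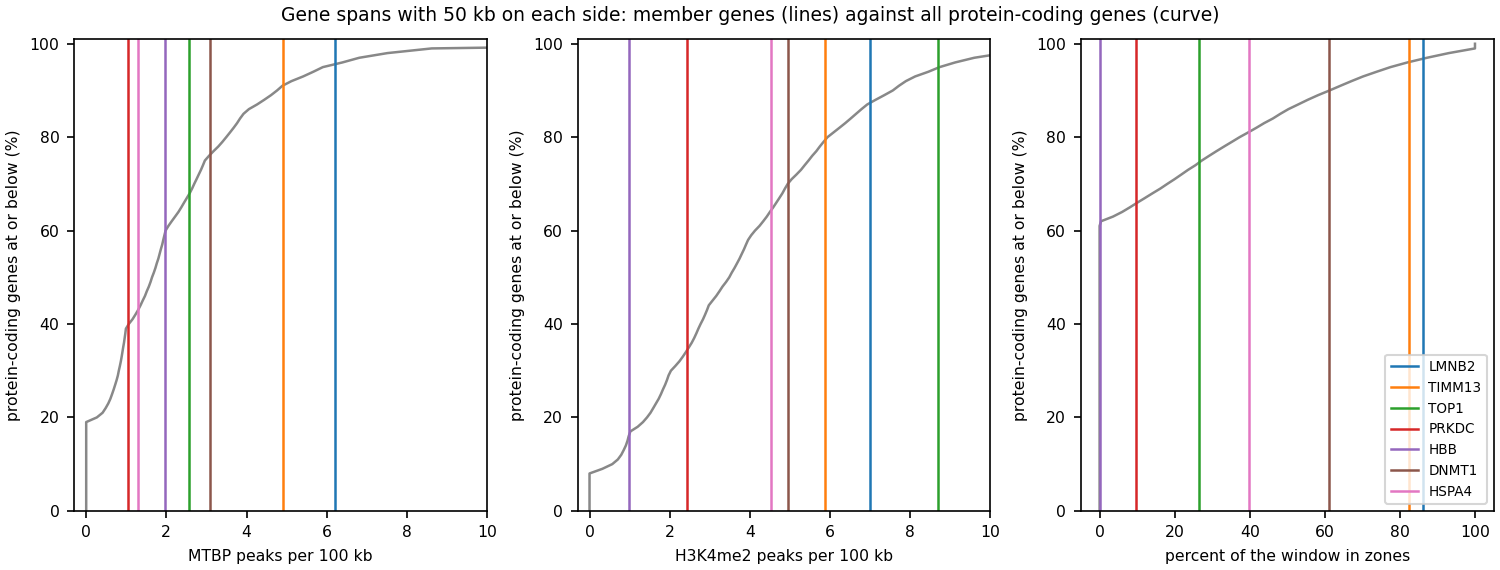
Peaks per 100 kb and the percent of the window in zones (x axes) for the 7 member genes (coloured lines) against the cumulative percent of all 19974 protein-coding genes (grey curve, y axes); the first 2 x axes stop at 10. LMNB2 and TIMM13 lie near the top of the MTBP and zone curves, with 95.7% and 91.1% of genes lower for MTBP, and HBB has 0 percent in zones.

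Zones took up 34.3% of the 6 loci, and 17 of the 25 MTBP peaks (68.0%) lay in one, against 23.0% of MTBP peaks in the whole list. The windows themselves were rich in zones, with a median of 39.9% for member genes against 0 over all protein-coding genes. The 68.0% and the 23.0% thus stand on unlike zone coverage. Without the LMNB2 and TIMM13 locus it was 10 of 17 (58.8%). Of the 25 MTBP peaks, 24 overlapped H3K4me2, against 98.9% in the list. By the authors' classes, 13 were in the promoter class (52%, against 34.7% of the list), 5 in the enhancer class (20.0% against 17.6%) and 7 were others. The promoter class takes in summits 9806, 9863 and 17975 bp from the nearest protein-coding start, or gene end where no start was used. Their annotation placed 6 of the 25 in repeats, 24.0% against 20.7% of the list.

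**Figure D2:**
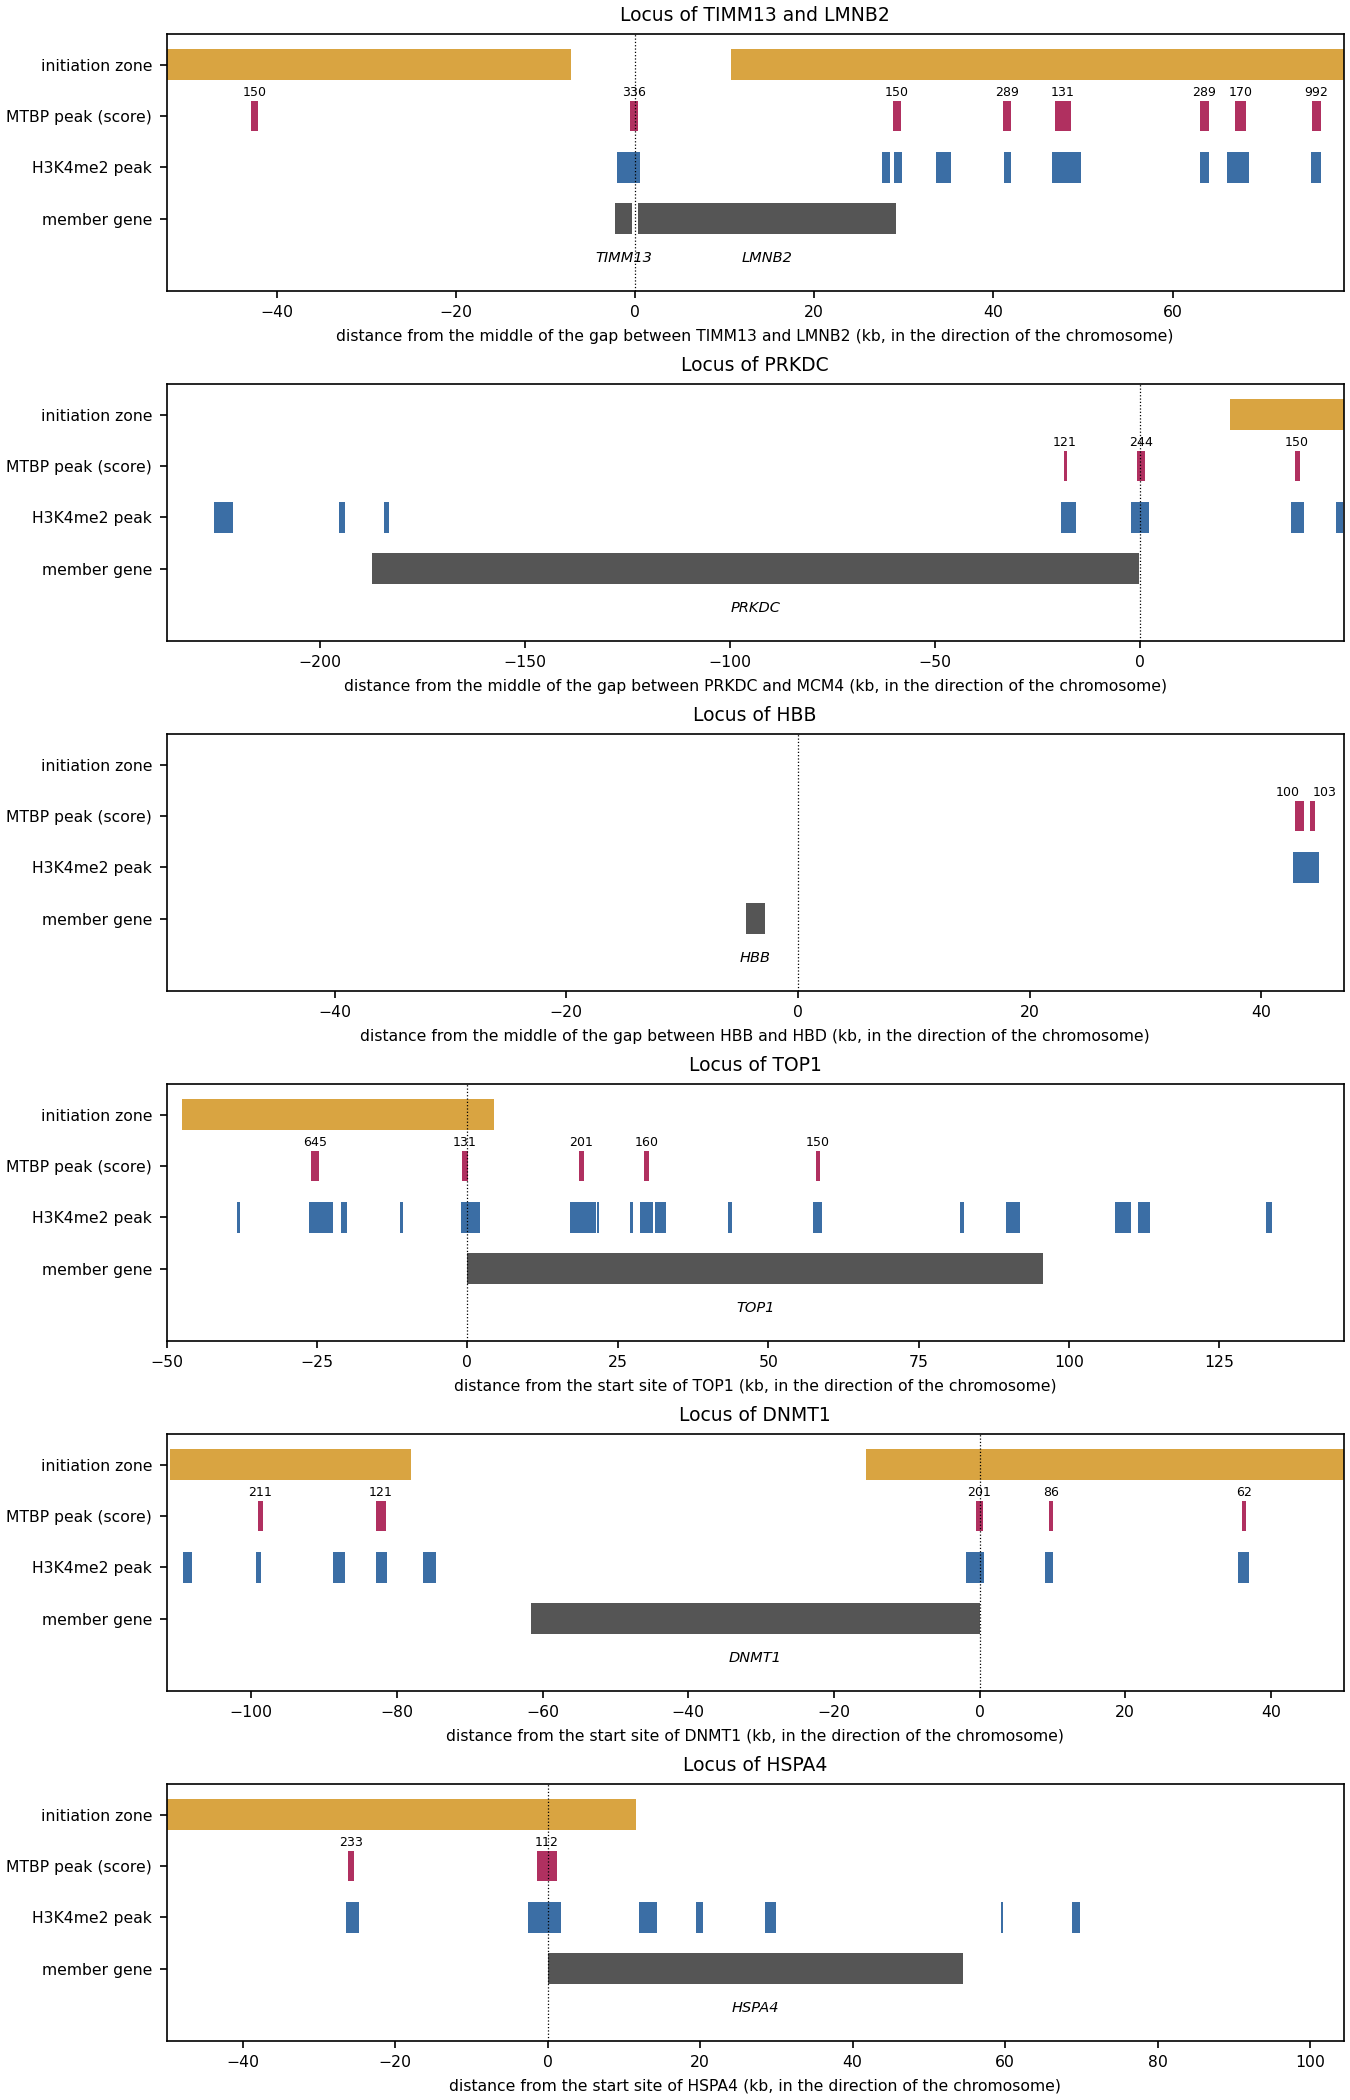
Initiation zones, MTBP peaks (labelled with the authors' score), H3K4me2 peaks and member genes at the 6 loci, drawn to scale within each panel. The x axis is the distance in kb from the middle of the gap between RefSeq genes or from the gene start (dotted line). An MTBP peak sits on the dotted line in 5 panels and is absent from it at HBB, and the lines at TIMM13 and LMNB2 and at PRKDC lie outside the zones.

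An MTBP peak covered the whole gap between LMNB2 and TIMM13, where the origin was mapped, while the zones stopped short of the gap on both sides. LMNB2 encodes lamin B2 of the nuclear lamina (chr19:2428166-2456959), and TIMM13 a chaperone of the mitochondrial intermembrane space (chr19:2425625-2427586). The gap between them is 579 bp long, and all of it lay under the peak at chr19:2427347-2428213, whose summit at 2427783 was inside the gap. This peak had a score of 336, above 79.2% of the list, with a signal of 362.6 in WT and 214.6 in deltaC. An H3K4me2 peak (chr19:2425827-2428400, fold 13.0) covered the gap too. One zone ended 6845 bp below the gap and the next began 10468 bp above it. The space between these zones was 17890 bp, and 8.78% of the 2450 spaces between neighbouring zones were smaller (median 155660.5 bp). Among 2077 gaps of up to 1 kb between protein-coding genes, 14.5% had an MTBP summit inside and 24.3% touched a zone. In tandem gaps such as this one, with both genes read the same way, 39.8% had an MTBP peak, 16.5% had a summit inside and 26.4% had an MTBP peak and no zone.

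Of the 6 loci, that of LMNB2 and TIMM13 had the most MTBP peaks per 100 kb (6.09) and the largest share in zones (86.4%), while H3K4me2 peaks were denser at TOP1 (8.69 per 100 kb against 6.85). Its MTBP peaks numbered 8, the one in the gap included. The upper zone (chr19:2438633-2642323) had a score of 7328, above 99.8% of zones, and held 16 MTBP and 30 H3K4me2 peaks along its full length. The lower zone (chr19:2239037-2420742) had a score of 1919 and held 2 MTBP and 6 H3K4me2 peaks. In positional order, the first MTBP peak lay in the lower zone (chr19:2385032-2385786, score 150) and was the 1 peak of the 25 with no H3K4me2. After the peak in the gap came one at the LMNB2 start (chr19:2456670-2457522, score 150) over H3K4me2 of fold 21.1. Beyond the start stood 2 peaks near GADD45B, a stress response gene: an enhancer-class peak in a MIRb repeat (chr19:2468899-2469866, score 289) and one at its start (chr19:2474712-2476559, score 131). Another 2 enhancer-class peaks followed (chr19:2490911-2491922, score 289, and chr19:2494791-2496068, score 170). Last came the highest score of all 25, 992 (chr19:2503426-2504437), above 99.6% of the list, which the authors put in the promoter class. The nearest protein-coding start to it was that of the uncharacterised LOC124904789, 9806 bp from the summit. All 6 peaks above the gap were in the upper zone. H3K4me2 peaks without MTBP lay inside LMNB2 near its start (chr19:2455481-2456325, fold 8.83) and upstream of it (chr19:2461442-2463185, fold 16.1).

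The interval between PRKDC and MCM4 showed the same arrangement of a covered gap outside any zone. PRKDC (chr8:47773111-47960136) encodes the catalytic subunit of the DNA-dependent protein kinase, which joins broken DNA ends, and MCM4 encodes a subunit of the replicative helicase. The 804-bp gap lay wholly under an MTBP peak (chr8:47959839-47961713, 1875 bp wide) with its summit inside the gap, a score of 244, and signals of 793.1 in WT and 393.5 in deltaC. H3K4me2 covered the gap (chr8:47958148-47962600, fold 15.7), with its summit outside it. The nearest zone began 21484 bp away, on the MCM4 side (chr8:47982424-48028428, score 330.5, above 30.5% of zones), and no part of PRKDC was in a zone. Among short gaps between genes known to diverge, 71.5% had an MTBP peak, 20.0% had a summit inside, 16.1% touched a zone and 61.1% had an MTBP peak and no zone. Another MTBP peak lay in intron 10 of PRKDC by the authors' annotation (chr8:47941819-47942588, score 121), and the last in the zone (chr8:47998142-47999369, score 150), in a HERVFH21 repeat over H3K4me2 of fold 47.1. The lower 218708 bp of the window, 76.2% of it, had no MTBP and held 3 H3K4me2 peaks that lacked it. One of these was the peak 156 bp from SPIDR, a DNA repair scaffold gene (fold 21.6, 4641 bp wide).

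HBB, the adult beta globin gene (chr11:5225464-5227071), had none of the 3 features between it and HBD, where initiation was mapped. The 5766-bp interval between HBB and HBD held no MTBP peak, no H3K4me2 peak and no zone. The nearest H3K4me2 peak was 39831 bp away, the nearest MTBP peak 40063 bp away, and the nearest zones were 1351785 bp away on one side and 1391994 bp on the other. Because the zones come from cells held early in S phase, later initiation at this locus was not covered. Of the 101608 bp of the window, the lower 95.9% had no MTBP. The HBB window's 2 MTBP peaks lay beyond HBE1, the embryonic globin gene at the side of the cluster that faces the locus control region, over 1 H3K4me2 peak (chr11:5272668-5274907, fold 20.7). The first, chr11:5272900-5273630 (score 100), is named for the deltaC line in the list, with signals of 175.2 in WT and 193.5 in deltaC. The second, chr11:5274152-5274614 (score 103), lay in an L1 repeat, with 137.9 in WT and 140.8 in deltaC. Of the list, 7.68% and 3.09% of peaks had a lower WT signal than these. Markers of erythroid cells, in which the globin genes are known to be active, had H3K4me2 at 2 of 10 genes (KLF1 and EPOR) and MTBP at 0 of 10 within 1 kb of the start, or of either end where the start was not used here. By the same rule 62.3% of protein-coding genes had H3K4me2 and 41.1% had MTBP. The 10 include HBB and HBG1 of this locus, and without them the counts were 2 of 8 and 0 of 8. The spans of 3 of the 10 overlapped a zone (HBA1, HBA2 and KLF1), against 24.5% of protein-coding genes. The colorectal epithelium markers had H3K4me2 at 8 of 9 genes, all but CDH17, and MTBP at 6 of 9, EPCAM and CDX2 among them, and the spans of 7 of 9 overlapped a zone. Fibroblast markers had H3K4me2 at 1 of 4 genes, MTBP at 1 of 4 and a zone at 1 of 4. Blood markers had H3K4me2 at 2 of 4 genes, MTBP at 1 of 4 and a zone at 2 of 4.

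TOP1 had its start inside a zone and an MTBP peak upstream of it, as well as the strongest MTBP signal of the 25. The gene (chr20:41028822-41124487) encodes topoisomerase I, which relaxes supercoiled DNA ahead of forks and polymerases. The peak at the start (chr20:41027844-41028834) had a score of 131, above 21.8% of the list, and signals of 341.1 in WT and 179.1 in deltaC. Upstream, 25230 bp from the start, an enhancer-class peak in a MIR3 repeat (chr20:41002874-41004086) had a score of 645 and signals of 1108 in WT and 596.0 in deltaC, and 97.1% of the list had a lower WT signal. Both were in the zone chr20:40981373-41033286 (score 1005). The other 3 MTBP peaks lay inside the gene and outside the zone. They were in a MER58B repeat (chr20:41047289-41048225, score 201, WT 318.2), in an MLT1F1 repeat (chr20:41058122-41059033, score 160, WT 303.9) and in intron 8 (chr20:41086693-41087494, score 150, WT 317.9). The first 2 of these stood on the strongest H3K4me2 of the locus, of fold 40.6 and 47.8, above 95.3% and 98.0% of that list. TOP1 had 17 H3K4me2 peaks in its window, the most of the 7 genes, of which 5 had MTBP. Beyond the 3′ end of TOP1, a peak of fold 17.7 near PLCG1, a phospholipase C gene, had no MTBP.

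DNMT1 (chr19:10133346-10194953), which encodes the methyltransferase that copies methylation after replication, had its start in a zone while most of its length lay outside. The MTBP peak at the start (chr19:10194486-10195401) had a score of 201, near the middle of the list with 50.8% lower, and signals of 418.0 in WT and 230.3 in deltaC. The H3K4me2 beneath it had a fold of 7.45, the lowest at any of the loci's H3K4me2 peaks with MTBP. Within the window, the zone of the start (chr19:10179318-10424682, score 2679, above 94.1% of zones) also held a peak of score 86 (chr19:10204463-10205006) and one of score 62 at the start of S1PR2, a receptor for sphingosine 1-phosphate (chr19:10230933-10231591). Only 65636 of the 245365 bp of this zone were in the window, and its full length held 11 MTBP and 15 H3K4me2 peaks. The S1PR2 peak had the lowest score of the 25, above 0.422% of the list, on H3K4me2 of fold 47.2, above 97.9% of that list. A smaller zone past the 3′ end (chr19:10083798-10116955, score 655) held the last 2 MTBP peaks, of score 211 (chr19:10095867-10096585) and of score 121 (chr19:10112145-10113428), the latter near P2RY11, a purinergic receptor gene. Between these and the peak at the start lay 81057 bp without MTBP, which take in nearly the whole gene and touch 3 H3K4me2 peaks.

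HSPA4 (chr5:133052013-133106449), a heat shock chaperone gene, had a wide MTBP peak across its start and none further into the gene. The peak (chr5:133050627-133053210) was 2584 bp wide, the widest of the 25. Its score of 112 was above 13.2% of the list, while its WT signal of 682.7 was above 84.7% (deltaC 361.8). Per kb of peak, its WT signal was 264.2, against 320.1 at the LMNB2 start, 344.2 at the TOP1 start, 418.2 at the TIMM13 gap, 423.0 at the PRKDC gap and 456.4 at the DNMT1 start. Across all MTBP peaks, which are not independent replicates, WT signal went with width (Spearman's rho 0.75), and score with width less closely (0.41). The other peak, of score 233, lay at the start of ZCCHC10 (chr5:133025835-133026639). Both were in the zone chr5:132968985-133063601 (score 748.1). Past the HSPA4 peak, 103239 bp held 6 H3K4me2 peaks and no MTBP, counting the edge of the H3K4me2 peak at the start. The 5 further ones had folds of 4.99 to 12.0.

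Among gene starts in the table used here, every one in the DNMT1 and HSPA4 windows lay in a zone and none in the HBB window did. Of the 16 protein-coding starts of the windows in that table, 11 were in a zone (68.8%, against 19.4% of all protein-coding starts), 9 had MTBP within 1 kb (56.2% against 43.0%) and 14 had H3K4me2 (87.5% against 63.9%). Zones took up 34.3% of the loci. A further 11 genes of the windows have no start in that table, 9 of them at PRKDC and HBB. Of these 11, 8 had neither end in a zone and 3 had a span that overlapped one, so the 11 starts in zones are a share of the 16 and not of all 27 genes. The 9 starts with MTBP were those of TIMM13, LMNB2, GADD45B, P2RY11, DNMT1, S1PR2, TOP1, HSPA4 and ZCCHC10. The spans of 4 of the 7 member genes (LMNB2, TOP1, DNMT1 and HSPA4) overlapped a zone, against 24.5% of protein-coding genes. In each of these 4 the zone covered the start and ended inside the gene, 4464 bp from the start in TOP1, 11588 bp in HSPA4, 15635 bp in DNMT1 and 18326 bp in LMNB2. The zone covered 4.67% of TOP1, 21.3% of HSPA4, 25.4% of DNMT1 and 63.6% of LMNB2. Of all 3824 protein-coding genes with a zone and a start in the table, 32.6% had the start alone in a zone, 48.4% both ends and 16.2% the other end alone. Among the 1061 such genes of 28794 to 95666 bp, the members' own range of lengths, it was 53.3% with the start alone, 22.4% with both ends and 21.3% with the other end alone. This grouping was chosen after the values at the 4 genes had been seen.

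MTBP signal was lower in deltaC than in WT at 23 of the 25 peaks. Only 1 of the 25 (4%) is named for deltaC, against 2.94% of the list. If names mark the line in which a peak was called, most peaks entered the list through WT. A lower deltaC signal at most peaks could then follow from that choice, which was not tested. The median log2((deltaC + 1)/(WT + 1)) was -0.91, and -0.93 over the whole list. Of the 25, 11 were at -1 or lower (44.0%, against 44.9% of the list), and 2 were above 0 (8%, against 4.52% of the list), both at HBB, at 0.14 and 0.03. Near-equal signal was not particular to HBB: the S1PR2 peak of the DNMT1 locus was at -0.0087, with 106.8 in WT and 106.1 in deltaC. That WT signal was the lowest of the 25. The lowest were 3 enhancer-class peaks of the LMNB2 locus, at -1.79, -1.67 and -1.47, with one near DNMT1 at -1.62. Values at the covered gaps and starts were -0.75 at the TIMM13 gap, -0.86 at DNMT1, -0.90 at LMNB2, -0.91 at HSPA4, -0.93 at TOP1 and -1.01 between PRKDC and MCM4. Inside TOP1, the 3 peaks outside the zone had -0.68, -0.61 and -0.11, against -0.89 and -0.93 for the 2 in the zone. Over the loci, the median was -1.01 for the 17 peaks in zones and -0.65 for the 8 outside, and over the list -1.14 in zones and -0.87 outside. Each value rests on 1 signal for each line, of unstated scaling, so a fall in all peaks cannot be told apart from a difference in scaling between the lines.

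**Figure D3:**
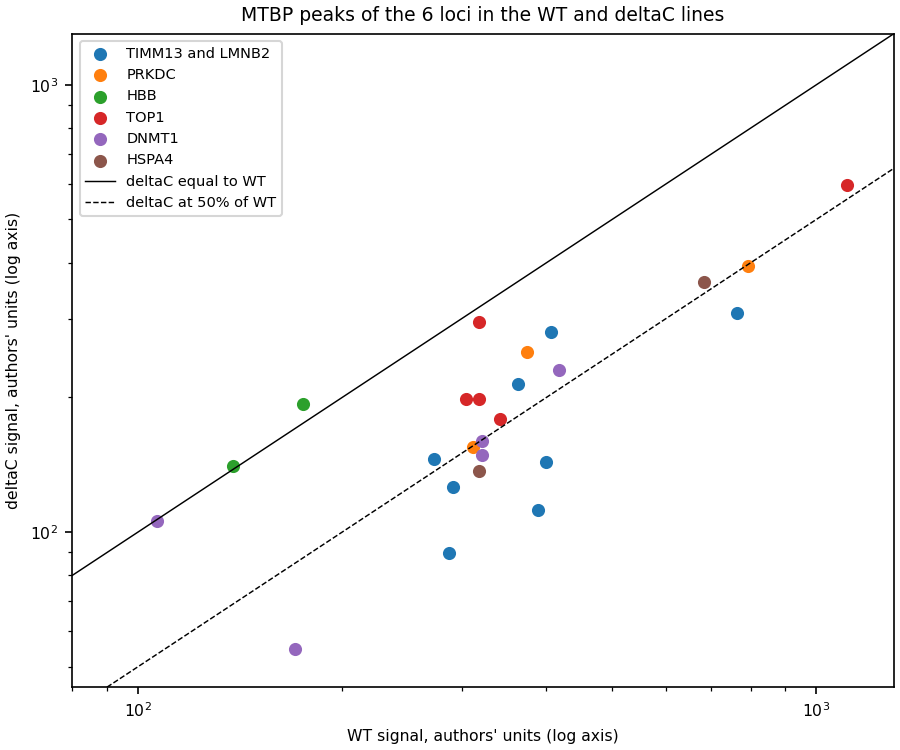
Authors' MTBP signal in the WT line (x axis) and the deltaC line (y axis) for the 25 peaks of the 6 loci, both on log axes in the authors' units; each point is 1 peak, coloured by locus. The 2 HBB peaks lie on or above the line of equal signal and 23 peaks lie below it, that of S1PR2 (106.8 in WT, 106.1 in deltaC) only just.

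At these loci H3K4me2 peaks with MTBP had a higher median fold than those without. Of the 49, 23 overlapped MTBP (46.9%, against 43.6% of the list). Their median fold was 19.3 (7.45 to 47.8), against 9.17 (3.65 to 23.0) for the 26 without MTBP, so the ranges overlapped. Over the whole list the medians were 23.0 and 9.35. All 8 H3K4me2 peaks of the loci in the list's top 25% by fold had MTBP, as did 79.9% of that top 25% in the list. The median distance between the summits of overlapping MTBP and H3K4me2 peaks was 265.5 bp, against 211 bp in the list, and the longest were 1253 bp between PRKDC and MCM4, 1036 bp at the HSPA4 start and 991 bp at the TOP1 start. In zones lay 24 of the 49 H3K4me2 peaks (49.0%, against 17.6%), and zones took up 34.3% of the loci. The untagged and IgG libraries are not analysed here, and their part in the MTBP signal over strong H3K4me2 was not tested.

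**Figure D4:**
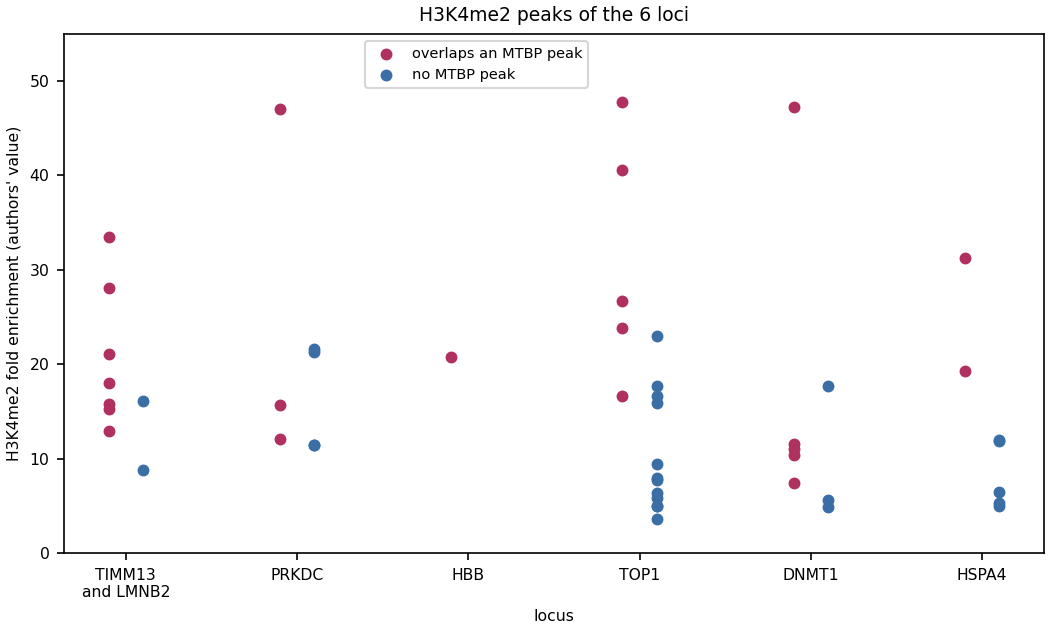
Authors' H3K4me2 fold enrichment (y axis) of each of the 49 H3K4me2 peaks of the 6 loci (x axis), split by overlap with an MTBP peak (red) or none (blue). Every peak above a fold of 23.0 is red, and both colours occur from 7.45 to 23.0.

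Of 6 further genes at published origins (MCM4, HBD, MYC, HPRT1, FMR1 and DBF4), 3 had MTBP within 1 kb of the start or, where the start was not used, of either end (MCM4, MYC and DBF4), against 41.1% of protein-coding genes. H3K4me2 was at 5 of the 6, all but HBD, against 62.3%, and the spans of 0 of the 6 overlapped a zone, against 24.5%. MCM4 and HBD lie in the PRKDC and HBB windows described above and add no separate locus, and MCM4 shares its peak with PRKDC. At DBF4, which encodes the activator of the CDC7 kinase, the peak had a score of 277 and the nearest zone was 10356735 bp away, whereas that of MYC was 414 bp away. HPRT1 and FMR1 had H3K4me2 with the nearest MTBP peak 113030 bp and 1098326 bp from the start.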

How the data were processed

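The 22 libraries, in 8 groups taken from their titles, were used through 3 deposited lists on hg38. Per the submitters' processing notes, Trim Galore, Bowtie2, MACS2 and HOMER were used; the sources used here do not give versions, parameters or whether replicates were pooled. The authors deposited a score and, for WT and deltaC, a signal of unstated scaling for each MTBP peak, and an average score for each zone. The authors' H3K4me2 list gives a score, a fold enrichment and a −log10 q-value for each peak. These values served to describe and rank features within a list, and depth is unknown. Chromosome Y was left out, which leaves 29848 MTBP peaks, 62388 H3K4me2 peaks and 2473 zones. H3K4me2 starts were moved to 1-based positions; MTBP and zone coordinates are as deposited, with an unstated base. Features overlapped at 1 bp or more. Gene spans and starts came from RefSeq tables (GRCh38.p14), with a start for 15813 protein-coding genes. Signals were compared as log2((deltaC + 1)/(WT + 1)); the planned library-level test could not be run without library values. Python 3.11.15 with pandas 2.3.3 was used, and overlap functions were tested on simulated intervals. The text names the 7 members, genes bounding the mapped intervals, genes with a start within 1 kb of an MTBP peak in a window, the gene nearest the highest score and genes of other published origins, of which 1 planned gene is not reported here; SPIDR and PLCG1 were named after their values were seen. Members and lists were chosen with earlier results of these data known.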

Additional observations from a re-analysis of the deposited data

How the results depend on the processing

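No paired analysis was possible because the lists hold no values for single libraries. Of 33 alternatives, 4 of them added after the data had been seen, 23 left the value within 1.5 times the count or within its 95% interval (exact binomial), 9 moved it and 1 turned its sign. The intervals treat peaks as independent although they cluster in a few loci, and most alternatives reuse the same peaks. They do not measure spread between libraries. With 20 kb on each side, MTBP peaks at the loci went from 25 to 14 and 100% of them overlapped H3K4me2. With 100 kb there were 40 MTBP and 80 H3K4me2 peaks. MTBP peaks of at least their list's median score numbered 10 of 25 (40%, against 52.9% of the list), and 100% of these overlapped H3K4me2. H3K4me2 peaks of at least their list's median score numbered 22, and 72.0% of all 25 MTBP peaks overlapped one. Without a score limit, 98.9% of MTBP peaks in the list overlapped H3K4me2. Only 4 zones had their centre in a window. The median log2 deltaC over WT became 0.018 once the median over all MTBP peaks was subtracted. The share of MTBP peaks in zones ran from 57.1% (20 kb) to 73.9% (without the HBB locus).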
